A study of Oryza sativa with 12 samples.

Results

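In rice anthers, 10 loci of the AP2/ERF family were followed after a cold night: OsERF1 (LOC_Os04g46220), OsERF3 (LOC_Os01g58420), OsAP2-39 (LOC_Os04g52090), OsERF8 (LOC_Os04g55520), OsERF34 (LOC_Os04g46440), OsERF56 (LOC_Os05g25260), OsERF74 (LOC_Os05g41780), OsERF87 (LOC_Os09g39850), OsERF136 (LOC_Os07g22730) and AP2/EREBP127 (LOC_Os01g49830). They are 10 of the 55985 MSU gene models in the table, and all 10 were found there by locus. By their locus names, 4 lie on chromosome 4, 2 on chromosome 1, 2 on chromosome 5, 1 on chromosome 7 and 1 on chromosome 9. The members were chosen by measured values of these same anthers: all but OsAP2-39 carry the mark of a significant increase in ERY in the published list from which they were taken. The contrast of COLD with CONTROL in ERY is therefore a description of what was selected.

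AP2/ERF proteins share the AP2 domain, a DNA-binding fold of plants. Ethylene response factors (ERFs) have a single AP2 domain, a trait they share with other branches of the family. Many ERFs bind the GCC box in promoters. Some ERFs act at the end of the ethylene pathway, below EIN2 and the EIN3-like (EIL) factors. Members of the family also answer to cold, drought and abscisic acid (ABA). RAV-type members carry a B3 DNA-binding domain beside the AP2 domain. Anthers just after meiosis hold young microspores and the tapetum that feeds them, and chilling at this stage can leave rice pollen sterile.

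The 4 groups were anthers of ERY COLD (cultivar Erythroceros Hokkaido, cold tolerant, 1 night at 8 °C), ERY CONTROL (the same cultivar at 24 °C), S.AND COLD (cultivar Sant'Andrea, cold susceptible, 1 night at 8 °C) and S.AND CONTROL (24 °C). The 24 °C is the value the authors give for the sequenced controls, while other passages of theirs give different day and night temperatures. The cold was applied in the night period only. Each had 3 biological replicates, 12 samples in all, and each replicate was pooled anthers of several plants. All plants were induced under short days, were staged by the distance between the auricles of the last leaves, and only anthers of normal anatomy were used. Each cultivar is 1 genotype, so tolerance cannot be told apart from any other property in which ERY and S.AND differ. Each value below is the authors' mean RPKM of a group (a read count scaled by the coding length of the gene and by the total of the column), with no value per sample. Hence no SD and no interval is given here and no test was run, and every difference below is a ratio of group means. For the depth, the sources state a lower limit common to all samples and no total per sample. The log2FC is the log2 of COLD over CONTROL with no added constant. A gene was counted as higher or lower where the ratio was at least 2 and the higher mean at least 1 RPKM. The stamen gene OsMADS3 had 455 RPKM in ERY COLD, 415 in ERY CONTROL, 418 in S.AND COLD and 362 in S.AND CONTROL, and all 6 stamen, tapetum and anther wall markers were present in every group. Of these 6, 1 was at least 2-fold lower in COLD in ERY, EAT1 (log2FC -1.05 in ERY, -0.83 in S.AND), and 0 in S.AND. The other tapetum and anther wall genes had a log2FC in ERY of -0.47 (TDR), -0.36 (OsC6), -0.12 (WDA1) and 0.14 (UDT1), and in S.AND of -0.75 (TDR), -0.31 (OsC6), -0.02 (WDA1) and 0.41 (UDT1), so they did not share a direction. The part of the tapetum in the values below was not tested, and in pooled anthers fewer cells of a type and less RNA per cell cannot be told apart.

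Higher levels in COLD were common to all 10 genes in ERY and less uniform in S.AND. In ERY the log2FC ranged between 1.19 (OsAP2-39) and 4.42 (OsERF136), with a median of 1.93 over the 10 genes and 0.03 over all genes that reached 1 RPKM in either group. All 10 were at least 2-fold higher in ERY COLD, where 8.19% of all 23936 genes were, and 6.66% of those genes were at least 2-fold lower. Since the choice of genes fixed this count, nothing is read from it. In S.AND the log2FC ranged between 0.06 (AP2/EREBP127) and 4.85 (OsERF87), with a median of 0.90 over the 10 genes and 0.00 over all genes. There 4 of the 10 were at least 2-fold higher in COLD (OsERF3, OsAP2-39, OsERF87 and OsERF136) and 0 lower, where 5.42% of all 24203 genes were higher and 9.22% lower. The label of cold-responsive factors therefore held by a 2-fold ratio for 4 of the 10 in S.AND, with OsERF34 just short of it at 1.98-fold. All 4 were also at least 2-fold higher in ERY, which 3.79% of the 22642 genes measured in both cultivars were. Among the genes at least 2-fold higher in ERY COLD, 47.8% reached 2-fold in S.AND as well, against 4 of these 10, so the count is near that background.

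**Figure D1:**
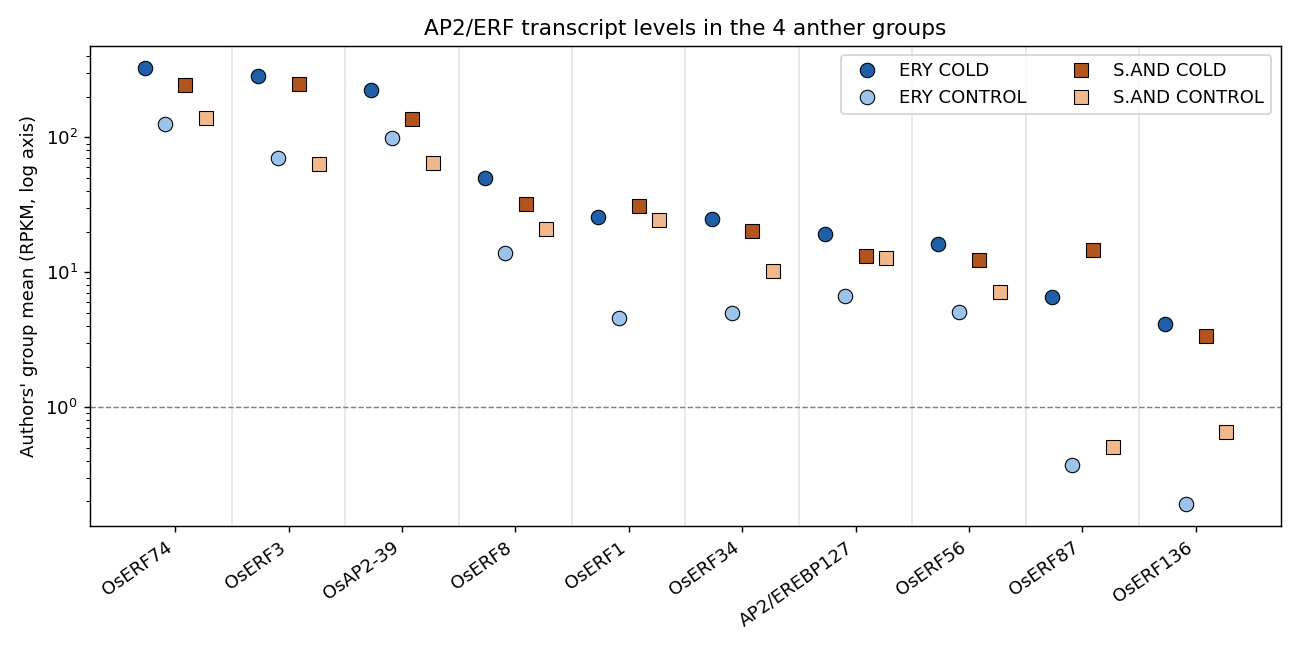
The authors' mean RPKM of each gene (vertical log axis) in ERY COLD, ERY CONTROL, S.AND COLD and S.AND CONTROL, 1 point per group mean of 3 samples, with the dashed line at 1 RPKM; no error bars can be drawn. OsERF74, OsERF3 and OsAP2-39 stand above the other genes in every group, and OsERF87 and OsERF136 lie under 1 RPKM in CONTROL.

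OsERF3, an ERF with a repressor (EAR) motif that was reported in rice to lower ethylene synthesis, had nearly the same levels in both cultivars. Its mean was 285 RPKM in ERY COLD and 70.9 RPKM in ERY CONTROL, a 4.01-fold ratio. S.AND COLD had 249 RPKM and S.AND CONTROL 63.2 RPKM, a 3.93-fold ratio. The log2FC differed by 0.03 between the cultivars, the smallest gap among the 10 genes. Its level was above that of 98.3% of the genes with at least 1 RPKM in ERY COLD and of 98.1% of them in S.AND COLD.

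OsAP2-39, known in rice for setting the balance of ABA and gibberellin, had the smallest response of the 10 in ERY and a like one in S.AND. It had 225 RPKM in ERY COLD and 98.7 RPKM in ERY CONTROL, a 2.28-fold ratio. In S.AND it had 137 RPKM in COLD and 65.1 RPKM in CONTROL, a 2.11-fold ratio. OsAP2-39 was above its S.AND level in ERY at both temperatures, with log2 ratios of ERY over S.AND of 0.71 in COLD and 0.60 in CONTROL. OsERF3 was the other gene of the 10 with that order, at 0.19 in COLD and 0.17 in CONTROL.

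OsERF1, named in rice for its response to ethylene, showed the widest gap between the cultivars. It had 25.9 RPKM in ERY COLD and 4.60 RPKM in ERY CONTROL, a log2FC of 2.49. S.AND COLD had 31.2 RPKM and S.AND CONTROL 24.5 RPKM, a log2FC of 0.35. ERY CONTROL was thus the low group, and the other 3 lay between 24.5 and 31.2 RPKM. The log2 ratio of ERY over S.AND was -0.27 in COLD and -2.41 in CONTROL. Of all genes past 1 RPKM in S.AND, 76.8% had a log2FC below that of OsERF1, against 98.9% in ERY.

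OsERF74, OsERF8, OsERF34 and OsERF56 are known here by their AP2 domain and their number in the family. Each of the 4 was higher in COLD in both cultivars, below 2-fold in S.AND. OsERF74 was the most abundant of the 10 in ERY, with 329 RPKM in ERY COLD and 126 RPKM in ERY CONTROL, a log2FC of 1.38. It had 243 RPKM in S.AND COLD and 139 RPKM in S.AND CONTROL, a log2FC of 0.81. The cultivars were nearest in CONTROL, where its log2 ratio of ERY over S.AND was -0.14, against 0.43 in COLD. OsERF8 had 50.3 RPKM in ERY COLD and 13.9 RPKM in ERY CONTROL, a log2FC of 1.85. Its S.AND means were 31.9 RPKM in COLD and 21.1 RPKM in CONTROL, a log2FC of 0.60. ERY held both the highest and the lowest of its 4 means. OsERF34 had 24.8 RPKM in ERY COLD and 5.003 RPKM in ERY CONTROL, a log2FC of 2.31. In S.AND it had 20.3 RPKM in COLD and 10.3 RPKM in CONTROL, a log2FC of 0.99. Here too the lowest and the highest mean were those of ERY. OsERF56 showed the same order at lower levels, with 16.3 RPKM in ERY COLD and 5.04 RPKM in ERY CONTROL, a log2FC of 1.70. Its S.AND means were 12.3 RPKM in COLD and 7.18 RPKM in CONTROL, a log2FC of 0.77.

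OsERF87 and OsERF136, likewise known by the AP2 domain and a family number, were the genes with means under 1 RPKM in both CONTROL groups. OsERF87 had 6.54 RPKM in ERY COLD and 0.375 RPKM in ERY CONTROL, a 17.4-fold ratio. S.AND COLD had 14.5 RPKM and S.AND CONTROL 0.503 RPKM, a 28.8-fold ratio. It was the 1 gene of the 10 with the larger log2FC in S.AND, by 0.72 (4.12 in ERY against 4.85 in S.AND). Of all genes past 1 RPKM, 99.8% in ERY and 99.95% in S.AND had a log2FC below it. OsERF136 had 4.11 RPKM in ERY COLD and 0.191 RPKM in ERY CONTROL, a log2FC of 4.42. S.AND COLD had 3.36 RPKM and S.AND CONTROL 0.648 RPKM, a log2FC of 2.37. Ratios over such low means depend on the added constant: with 1 RPKM added, OsERF87 had a log2FC of 2.46 in ERY, against 3.37 in S.AND, while OsERF136 had 2.10 in ERY, against 1.40 in S.AND. No error was computed for these low means.

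AP2/EREBP127, the RAV-type member described with a B3 domain, differed between CONTROL and COLD in ERY alone by a 2-fold ratio, a difference of cultivars that was not tested. It had 19.1 RPKM in ERY COLD and 6.64 RPKM in ERY CONTROL, a log2FC of 1.53. S.AND COLD had 13.3 RPKM and S.AND CONTROL 12.7 RPKM, a log2FC of 0.06. In S.AND, 55.1% of all genes past 1 RPKM had a log2FC below that value.

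**Figure D2:**
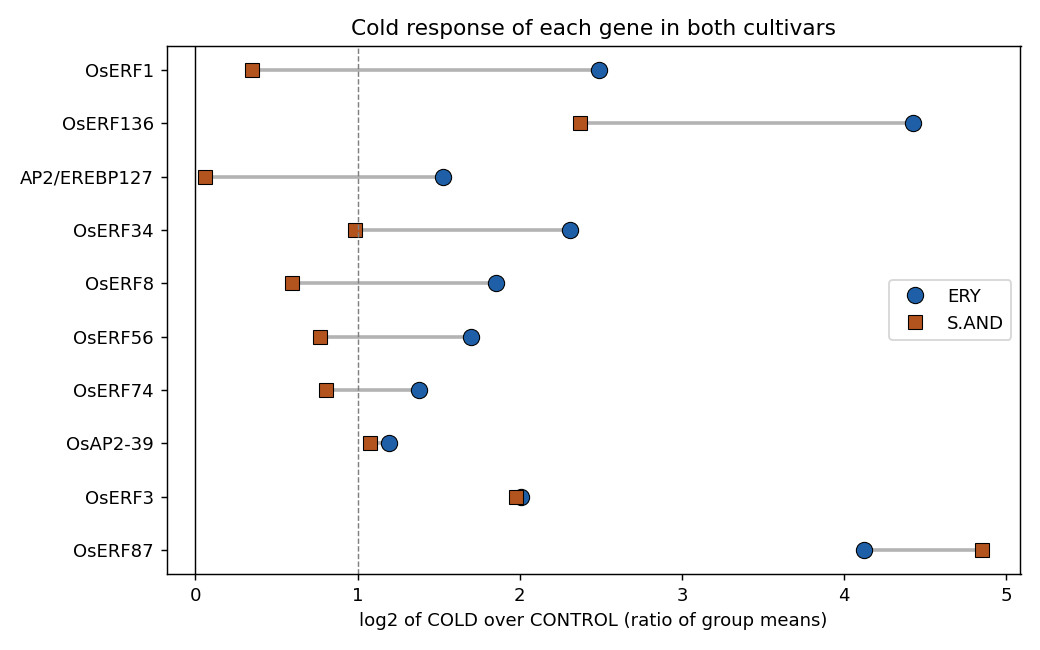
The log2FC of each gene (horizontal axis, log2 of COLD over CONTROL from group means) in ERY (circles) and S.AND (squares), sorted by the difference between them, with the dashed line at 2-fold. OsERF1 is at 2.49 in ERY and 0.35 in S.AND, OsERF3 is at 2.01 in ERY and 1.98 in S.AND, and OsERF87 is the gene with S.AND on the right.

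Set side by side, 9 of the 10 genes had the larger log2FC in ERY, OsERF87 being the exception. Over all genes measured in both cultivars this was so for 51.7%, and among the genes at least 2-fold higher in ERY COLD for 83.9%, a background picked by the same contrast as the members and near their own share. Where genes were picked by a 2-fold ratio in S.AND instead, 46.9% had the larger log2FC in ERY, and of the 4 members picked in that way 3 had it. The difference of log2FC (ERY minus S.AND) was at least 1 for OsERF1 (2.14), OsERF136 (2.05), AP2/EREBP127 (1.47), OsERF34 (1.32) and OsERF8 (1.26). These are 5 of 10, where the same held for 5.33% of all genes measured in both cultivars and for 29.7% of those at least 2-fold higher in ERY COLD. The difference was 0.93 for OsERF56, 0.57 for OsERF74, 0.12 for OsAP2-39 and 0.03 for OsERF3. Its median was 1.09 over the 10 genes, 0.56 over the genes at least 2-fold higher in ERY COLD and 0.01 over all genes. All members but OsAP2-39 were also chosen by a mark of significance in ERY, which the genes at least 2-fold higher there did not need. A larger ratio in ERY by itself raises the difference, so nothing is read from the excess over those genes. With 1 RPKM added, the difference for OsERF136 was 0.70. Whether the cold response differed between the cultivars for any of the 10 was not tested, since the table holds no values per sample and its columns of statistics, which were not used, compare COLD with CONTROL within a cultivar.

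**Figure D3:**
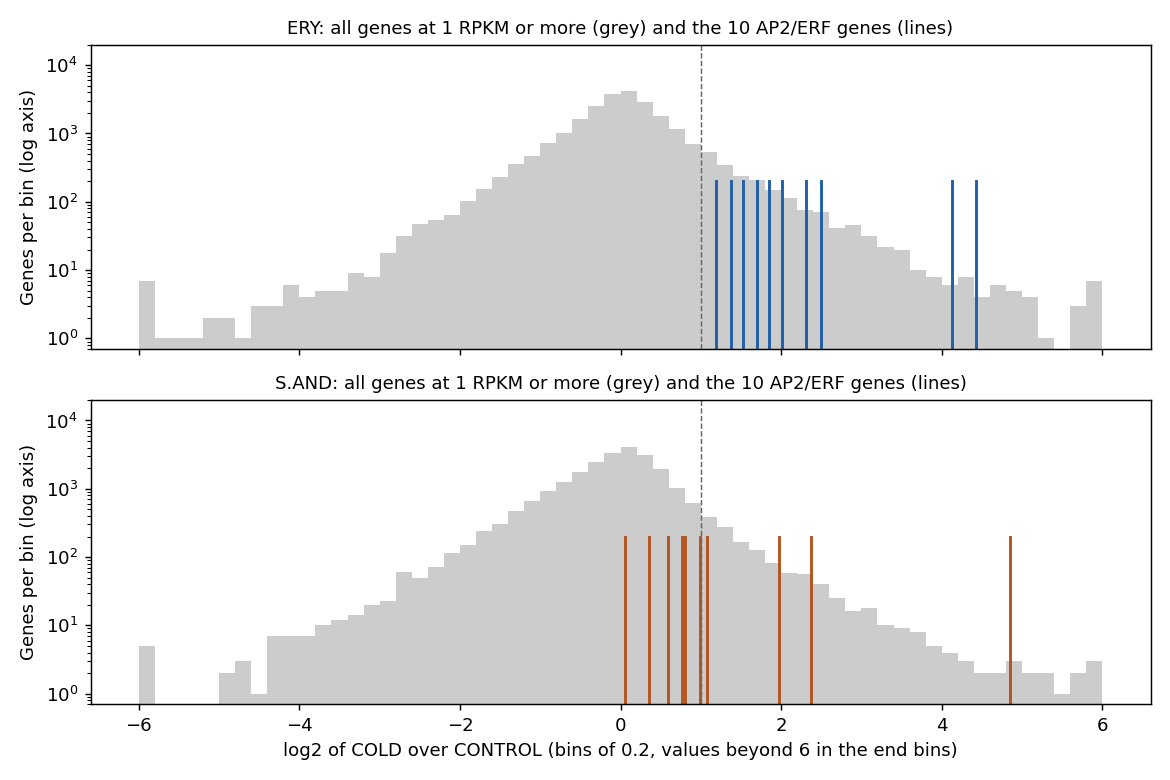
Histograms of the log2FC of all genes that reached 1 RPKM in COLD or CONTROL (grey, genes per bin on a log axis) in ERY (upper panel) and S.AND (lower panel), with the 10 AP2/ERF genes as lines of a fixed height and the dashed line at 2-fold. The 10 lines lie right of the dashed line in ERY, the contrast by which the genes were chosen, and 4 lie right of it in S.AND.

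Between the cultivars at the same temperature, the means of the 10 genes were mostly lower in ERY under CONTROL and mostly higher in ERY under COLD. The log2 ratio of ERY over S.AND had a median of 0.35 in COLD and -0.55 in CONTROL over the 10 genes, with -0.00 in COLD and -0.04 in CONTROL over all genes. In COLD, 0 of the 10 were at least 2-fold higher in ERY (6.91% of all genes) and 1, OsERF87, was at least 2-fold lower (6.85% of all genes). OsERF87 had a log2 ratio of -1.15 there, and the other 9 ranged between -0.27 and 0.71. In CONTROL, 8 of the 10 reached 1 RPKM in either cultivar, and 0 of those 8 were at least 2-fold higher in ERY (7.9% of all genes). OsERF1 and OsERF34 were at least 2-fold lower in ERY CONTROL (11.2% of all genes), OsERF34 only just, with a log2 ratio of -1.04. AP2/EREBP127 came next among the 8 at -0.94. OsERF136, under 1 RPKM in both CONTROL groups and so not counted, had -1.76, with 0.191 RPKM in ERY CONTROL against 0.648 RPKM in S.AND CONTROL. Any lower mean in ERY CONTROL, whatever its size, was seen for 8 of the 10, all but OsERF3 and OsAP2-39. Of all genes measured in both cultivars 53.4% were likewise lower in ERY CONTROL, and of those at least 2-fold higher in ERY COLD 78.6%, and a low ERY CONTROL mean itself raises the ratio by which the genes were chosen. The cultivars lay farther apart in CONTROL than in COLD for 5 genes (OsERF1, OsERF34, OsERF56, OsERF136 and AP2/EREBP127), a share of 5 in 10 beside 56.5% of all genes measured in both cultivars and 69.3% of those at least 2-fold higher in ERY COLD. Beside the genes picked by the same contrast, the last 2 shares are close to their background or below it.

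**Figure D4:**
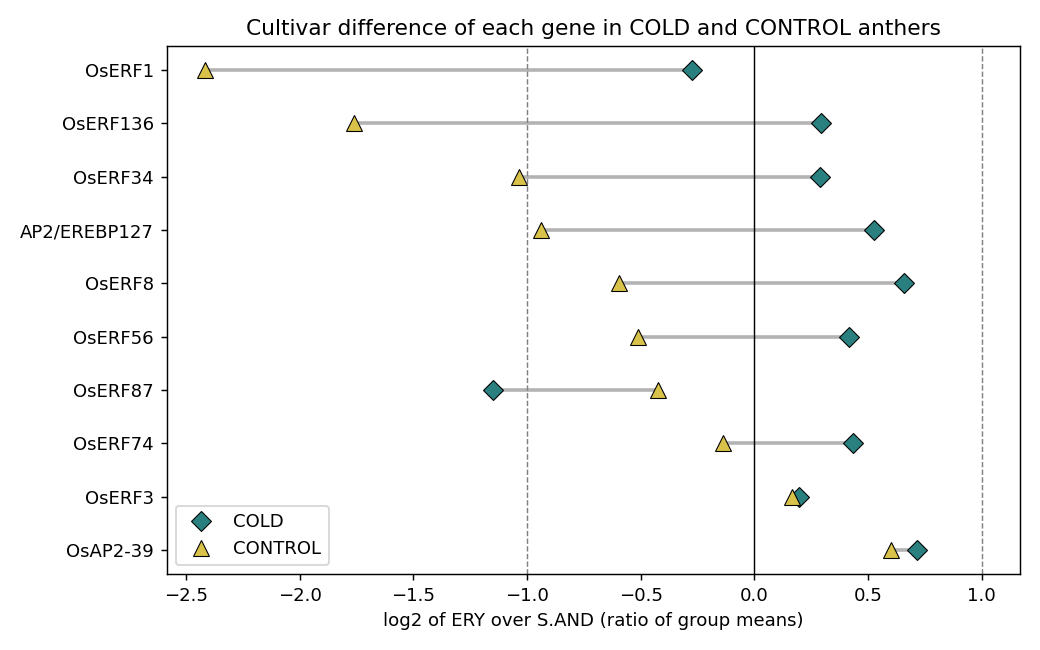
The log2 ratio of ERY over S.AND for each gene (horizontal axis, from group means) in COLD (diamonds) and CONTROL (triangles), with dashed lines at 2-fold either way. OsERF1 is at -0.27 in COLD and -2.41 in CONTROL, and OsERF87 is the gene whose COLD value, -1.15, lies left of its CONTROL value.

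Most of the transcript level of the 10 genes came from 3 of them. Summed RPKM was 986 in ERY COLD and 332 in ERY CONTROL, a ratio of 2.97, and 756 in S.AND COLD and 344 in S.AND CONTROL, a ratio of 2.20. OsERF74, OsERF3 and OsAP2-39 held 85.1% of the sum in ERY COLD, 89.2% in ERY CONTROL, 83.2% in S.AND COLD and 77.7% in S.AND CONTROL. They also gave 83.0% of the 654 RPKM by which the sum was higher in COLD in ERY, and 87.9% of the 412 RPKM in S.AND. The sums of the cultivars had a ratio of ERY over S.AND of 1.30 in COLD and 0.964 in CONTROL. RPKM is per length, so levels can be set beside each other between genes. OsERF74, OsERF3 and OsAP2-39 were the 3 highest in every group, and the gene next in order lay 4.48-fold below the lowest of them in ERY COLD, 5.09-fold in ERY CONTROL, 4.31-fold in S.AND COLD and 2.58-fold in S.AND CONTROL. Among these 3, OsERF74 was first in all groups but S.AND COLD, where OsERF3 stood 1.02-fold above it. OsERF8 came next in both ERY groups and in S.AND COLD, and OsERF1 came next in S.AND CONTROL. The highest gene stood 80.0-fold over the lowest in ERY COLD, 661-fold in ERY CONTROL, 74.1-fold in S.AND COLD and 276-fold in S.AND CONTROL, so the span of levels was narrower in COLD. The lowest gene in CONTROL was OsERF136 in ERY and OsERF87 in S.AND, each under 1 RPKM there. Both were chosen for higher levels in ERY COLD, so nothing is read from the narrower span. Which neighbours in these orders differ beyond their spread cannot be said from group means.

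The shape of the 4 means, taken as log2(RPKM + 1) centred on each gene's own mean, put OsERF136 closest to the mean shape of the 10 (distance 0.28) and OsERF87 farthest (1.71), with OsERF1 next (1.26). With no added constant, OsERF136 had the largest log2FC of the 10 in ERY, 4.42, against 2.10 with 1 RPKM added. No distance was computed without the constant, so the nearness of OsERF136 to the mean shape holds for this scale only. OsERF8 and OsERF56 were the closest pair, at a distance of 0.21, and OsERF87 and AP2/EREBP127 the farthest, at 2.49. Outside the 10, the listed genes whose 4 means were most like their mean shape were OsRTE2 (0.08), a relative of a regulator of ethylene receptors, and OsEIL1 (0.21), an EIN3-like factor. OsRTE2 had 44.7 RPKM in ERY COLD, 13.1 in ERY CONTROL, 40.6 in S.AND COLD and 17.9 in S.AND CONTROL. OsEIL1 had 4.21 RPKM in ERY COLD, 0.773 in ERY CONTROL, 3.62 in S.AND COLD and 1.29 in S.AND CONTROL. Only the 34 listed genes of the ethylene pathway and the other listed AP2/ERF genes were compared. The nearest gene therefore had to come from these lists, and some of their genes were chosen on these samples. A likeness over 4 group means is a description only.

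Other AP2/ERF genes of the same source gave mixed values. Of 7 ERFs taken there from the literature, 4 reached 1 RPKM in ERY, with 2 at least 2-fold higher in COLD and 0 lower (median log2FC 0.98), and 3 reached it in S.AND, with 1 higher and 0 lower (0.12). OsERF1, OsERF3 and OsAP2-39 stand in that same literature list and, as members, were left out of the 7. Each of them was at least 2-fold higher in ERY COLD, so the 7 are no fair sample of that list. Sub1C, of the submergence locus, had 16.2 RPKM in ERY COLD against 4.46 RPKM in ERY CONTROL, and 10.9 RPKM in S.AND COLD against 2.60 RPKM in S.AND CONTROL. OsEATB of that list differed in direction between the cultivars, with 1.46 RPKM in ERY COLD against 0.300 RPKM in ERY CONTROL, and 0.286 RPKM in S.AND COLD against 0.690 RPKM in S.AND CONTROL, the S.AND means being under 1 RPKM. OsDERF1, known in rice as an activator of OsERF3 and OsAP2-39, was listed at 0 in all 4 groups, and is named after its values were seen. Of 4 further ERFs, 4 were at least 2-fold higher in ERY COLD (median 1.93) and 3 in S.AND COLD (1.42), but they were chosen on these ERY samples, and their direction is no independent evidence. OsERF69 had the largest ratio of them, with 6.52 RPKM in ERY COLD against 0.559 RPKM in ERY CONTROL, and 3.19 RPKM in S.AND COLD against 0.870 RPKM in S.AND CONTROL. OsERF65 of that list resembled AP2/EREBP127, with 9.91 RPKM in ERY COLD against 2.64 RPKM in ERY CONTROL, and 7.77 RPKM in S.AND COLD against 7.55 RPKM in S.AND CONTROL. Of 6 further AP2-domain genes, also chosen on these samples, 5 were at least 2-fold higher in ERY COLD (median 2.04) and 6 in S.AND COLD (1.67). The largest ratio of the 6 was that of LOC_Os07g12510, with 76.7 RPKM in ERY COLD against 13.5 RPKM in ERY CONTROL, and 102 RPKM in S.AND COLD against 20.2 RPKM in S.AND CONTROL. RSR1, a regulator of starch synthesis, was another of the 6, with 100.2 RPKM in ERY COLD against 25.1 RPKM in ERY CONTROL, and 74.6 RPKM in S.AND COLD against 16.8 RPKM in S.AND CONTROL. Around the 2-fold ratio in ERY, OsAP2-39 lay just inside at 2.28-fold and the listed AP2-domain gene LOC_Os05g32270, named for this after its values were seen, just outside at 1.99-fold. The 3 listed AP2/ERF genes chosen for lower levels had a median log2FC of -1.64 over the 2 that reached 1 RPKM in ERY and -2.22 over all 3 in S.AND.

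The ethylene pathway above the ERFs was measured with 34 listed genes. In ERY, 26 of them reached 1 RPKM, 8 were at least 2-fold higher in COLD and 0 lower, with a median log2FC of 0.49. In S.AND, 25 reached 1 RPKM, 7 were higher and 0 lower, with a median of 0.49. Over all genes past 1 RPKM, 8.19% were higher and 6.66% lower in ERY, with a median of 0.03. The same shares in S.AND were 5.42% and 9.22%, with a median of 0.00. The synthesis gene OsACO2, an ACC oxidase that makes the hormone, had 108 RPKM in ERY COLD against 26.8 RPKM in ERY CONTROL, and 74.5 RPKM in S.AND COLD against 19.0 RPKM in S.AND CONTROL. OsACO4 of the same family had a 3.05-fold ratio in ERY and 1.72-fold in S.AND, while OsACO1 had 1.42-fold in ERY and 2.47-fold in S.AND. OsACO3 went the other way, with 1.09 RPKM in ERY COLD against 1.18 RPKM in ERY CONTROL. In S.AND it had 0.152 RPKM in COLD against 0.417 RPKM in CONTROL, both under 1 RPKM and so not counted as lower. Among the synthesis genes past 1 RPKM, 2 of 7 were at least 2-fold higher in ERY COLD and 3 of 6 in S.AND COLD. The receptor gene OsETR3 had 4.82 RPKM in ERY COLD against 2.03 RPKM in ERY CONTROL, and 10.6 RPKM in S.AND COLD against 2.63 RPKM in S.AND CONTROL. OsEIL2, of the factors that switch on ERF genes, had 220.3 RPKM in ERY COLD against 78.1 RPKM in ERY CONTROL, and 202 RPKM in S.AND COLD against 85.1 RPKM in S.AND CONTROL. OsEBF1 and OsEBF2 encode F-box proteins that remove EIL proteins. The log2FC of OsEBF1 was 1.09 in ERY, against 0.47 in S.AND. That of OsEBF2 was 1.15 in ERY, against 0.60 in S.AND.

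Loci beside the 10 genes were counted in the order of the locus names. Of the 20 adjacent loci, 11 reached 1 RPKM in a group, and 1 was at least 2-fold higher in COLD in ERY and 1 in S.AND, beside 8.19% of all genes in ERY and 5.42% in S.AND. Within 2 loci on either side, 21 of 40 reached 1 RPKM, with 3 higher in ERY and 4 in S.AND. Both of these counts include LOC_Os05g41760, an AP2-domain gene that was itself listed for higher levels in these samples. The adjacent locus counted in both cultivars was LOC_Os09g39840 beside OsERF87, named after its values were seen. It had 1.27 RPKM in ERY COLD against 0.344 RPKM in ERY CONTROL, and 1.84 RPKM in S.AND COLD against 0.412 RPKM in S.AND CONTROL. Strand-specific counting is not stated, so reads of overlapping genes cannot be told apart there. Some AP2/ERF loci lay close together in the order of locus names. In it, 1 locus stood between OsERF74 and the AP2-domain gene LOC_Os05g41760, 4 between OsERF8 and LOC_Os04g55560, and 20 between OsERF1 and OsERF34. LOC_Os05g41760 had 62.8 RPKM in ERY COLD against 14.1 RPKM in ERY CONTROL, and 49.8 RPKM in S.AND COLD against 18.0 RPKM in S.AND CONTROL, but it was listed, like OsERF74, for higher levels in these samples, so nothing is read from their shared direction. OsERF1 and OsERF34 had unlike values in S.AND CONTROL, where OsERF1 had 24.5 RPKM and OsERF34 10.3 RPKM, and like ones in ERY CONTROL, where OsERF1 had 4.60 RPKM and OsERF34 5.003 RPKM. Both also had higher means in COLD than in CONTROL in each cultivar, and nothing is read from that either.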

How the data were processed

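Poly(A) RNA of 12 anther samples was read by the authors as single 50 bp reads, mapped in CLC Genomics Workbench 4.7.1 to the rice gene models of MSU 7.0 and deposited as 1 table of RPKM per gene, averaged by the authors over the 3 replicates of each group. Each of the 4 columns sums to 1000000 within 2 units, so the deposited RPKM were rescaled to a common total. The table also holds the authors' fold changes and FDR between COLD and CONTROL, which were not used. With 0 columns of values per sample, no test, SD, block or left-out replicate was possible from the RPKM. For the depth, only a lower limit common to all samples is stated by the sources.

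Ratios of group means were computed in Python 3.11.15 with NumPy 2.4.6, pandas 2.3.3 and Matplotlib 3.10.9. A call needed a ratio of at least 2 and at least 1 RPKM in the higher group. Alternatives were 1 and 0.1 RPKM added, folds of 1.5 and 3, no minimum or 10 RPKM, centring on the median gene and common scalings. The code was tested on simulated data.

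The 10 members and all lists were chosen with earlier results of these data known. All members were named, with up to 4 genes of each other list with the largest log2FC of either sign, and the 2 most similar listed genes. Outside that rule, OsMADS3 and the other anther markers are given to check the tissue, and OsDERF1, LOC_Os05g32270 and LOC_Os09g39840 were named after their values were seen. Of the locus names, 0 matched the reference gene table, so no coordinates or sequences are given.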

Additional observations from a re-analysis of the deposited data

How the results depend on the processing

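No paired analysis was possible because the deposited columns are group means that carry no replicate numbers, and for the same reason no replicate could be left out. Of the other alternatives, none reversed a value. The count of members at least 2-fold higher in S.AND COLD was 4 and became 8 at a fold of 1.5. The count at least 2-fold lower in ERY CONTROL than in S.AND CONTROL was 2 and became 1 with 1 RPKM added, 1 when centred on the median gene, 1 at a fold of 3 and 4 at a fold of 1.5. The count at least 2-fold different between ERY COLD and S.AND COLD was 1 and became 3 at a fold of 1.5 and 0 at a fold of 3. Rescaling to the same summed RPKM could move nothing, since the columns already share a total, and is not counted. The other 49 values of counts, medians and sums under alternatives, and 115 values of single genes, stayed within 1.5 times the value reported (0.58 on the log2 scale). The 5 values of single genes that moved were those of OsERF87 and OsERF136 with 1 RPKM added. Without the 10 highest genes of the table, a scaling chosen after seeing the data, the log2 ratios shifted by -0.03 to 0.02. No error was computed for the CONTROL means of OsERF87 and OsERF136, which lie under 1 RPKM.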
